A study of Mus musculus with 2 samples.

Results

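Choroid plexus epithelial cells are the cuboidal cells that cover the choroid plexus in the brain ventricles. They were chosen by measured values, a sum over the UMI counts of 4 genes, from 2 droplet libraries: Kcnj13 and Kcne2, which encode potassium channel subunits, Folr1, a folate receptor, and Prlr, the prolactin receptor. A cell entered the class with at least 5 UMIs (unique molecular identifiers, each standing for 1 captured transcript) of these genes together, no UMI of the leukocyte gene Ptprc, and at most 1 UMI of the endothelial genes Cldn5 and Pecam1. The rule took 487 of 10349 cells in the IL34LacZ/LacZ library and 880 of 8812 cells in the IL34LacZ/+ library, or 1367 of 19161 cells in all (7.13%).

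The series holds 1 library from adult mice carrying a LacZ allele of Il34 on both chromosomes (IL34LacZ/LacZ) and 1 library from adult mice carrying it on 1 chromosome (IL34LacZ/+), both prepared from whole brain with the 10x Genomics 3′ v3.1 chemistry. IL-34 is a cytokine that binds the macrophage receptor CSF1R. Both libraries carry at least 1 LacZ allele, and neither is wild type. Per the labels, the sort gates were for microglia, border-associated macrophages, astrocytes, endothelial cells and a gate on CD13, CD140a or both for fibroblasts with mural cells. Choroid plexus epithelial cells are not among the gates named, and the libraries held 95505407 UMIs in IL34LacZ/LacZ and 87394167 UMIs in IL34LacZ/+ over all their barcodes. The number of animals and the proportions loaded are not stated in the labels. With 1 library per genotype there was no replicate and no test was made: every interval below is at 95% and covers counting error only, so a difference between the libraries cannot be told apart from a difference between mice, sorts or preparations.

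The choroid plexus epithelium makes cerebrospinal fluid. It moves sodium, chloride, bicarbonate and water from the blood side to the ventricle, seals the passage between its cells with tight junctions, and secretes carrier proteins and growth factors into the fluid. Transthyretin, encoded by Ttr, carries thyroxine and is its most abundant secreted product. The homeodomain factor OTX2 is required for its formation and upkeep in mice.

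Promoter windows of 2 of the rule genes and of Otx2 are shown because the first 2 genes define the class and the third encodes its best known regulator. They are RefSeq windows on GRCm38.p6, each running from 250 bases before to 50 bases after a transcript start, and capitals mark TAATCC or its reverse complement GGATTA, the core letters of the motif bound by OTX-type homeodomains. The Kcnj13 window is chr1:87394680-87394979 on the minus strand, the Kcne2 window is chr16:92292139-92292438 on the plus strand, and the Otx2 window is chr14:48665060-48665359 on the minus strand, the 1 of its 4 windows that holds the motif.
Kcnj13: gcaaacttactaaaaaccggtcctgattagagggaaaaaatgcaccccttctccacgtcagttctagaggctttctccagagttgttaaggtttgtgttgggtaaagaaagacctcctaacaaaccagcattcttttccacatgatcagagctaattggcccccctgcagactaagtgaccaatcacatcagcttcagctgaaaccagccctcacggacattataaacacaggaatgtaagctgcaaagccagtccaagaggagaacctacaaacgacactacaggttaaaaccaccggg
Kcne2: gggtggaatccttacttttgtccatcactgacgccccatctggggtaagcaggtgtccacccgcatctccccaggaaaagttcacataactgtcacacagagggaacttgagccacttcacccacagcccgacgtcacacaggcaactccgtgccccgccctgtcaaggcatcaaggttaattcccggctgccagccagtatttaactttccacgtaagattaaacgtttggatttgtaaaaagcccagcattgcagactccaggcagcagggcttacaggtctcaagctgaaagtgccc
Otx2: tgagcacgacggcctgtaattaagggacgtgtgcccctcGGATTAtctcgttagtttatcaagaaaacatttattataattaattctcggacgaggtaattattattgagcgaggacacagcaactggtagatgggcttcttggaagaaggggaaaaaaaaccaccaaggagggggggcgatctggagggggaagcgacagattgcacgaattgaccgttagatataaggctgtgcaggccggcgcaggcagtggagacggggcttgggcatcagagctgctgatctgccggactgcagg
On either strand the motif was present in 2320 of 32851 promoter windows (7.06%). Of the 19 choroid plexus markers listed, 15 had a window, and 1 of their 21 windows, the one of Otx2, held it. A match is a string of letters and not a bound site, and a window without it says only that these letters are absent there.

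The members carried the markers of choroid plexus epithelium that the rule did not use. All 14 of those markers that the matrices hold were detected in both libraries. They were also detected in the cells outside the class, so detection alone does not set the members apart. Ttr made up 25.6% of the members' summed UMIs in IL34LacZ/LacZ and 29.4% in IL34LacZ/+, against 1853 and 3315 CPM (counts per 1000000 UMIs of the cells named) in the 3503 and 2950 cells of a macrophage or microglia gate, which should lack it. That gate asked for at least 5 UMIs of Csf1r, Ptprc, C1qb and Fcer1g together, no Cldn5 and at most 1 UMI of the 4 rule genes, so levels of the rule genes in it are set by its definition. Otx2 was present in 80.7% of members in IL34LacZ/LacZ and 83.6% in IL34LacZ/+ at a median depth of 14740 and 14027.5 UMIs, and in 0.999% and 0.7797% of the macrophage-gate cells at 4045 and 3539.5 UMIs. Kl, the gene of the anti-ageing protein klotho, was present in 87.3% of members in IL34LacZ/LacZ and 94.7% in IL34LacZ/+, and the bicarbonate transporter gene Slc4a5 in 71.05% and 75%, where the macrophage gate had 4.08% and 3.898% for Kl and 0.571% and 0.678% for Slc4a5.

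A small set of members did not carry this programme. Ttr was under 3% of the UMIs in 49 members of IL34LacZ/LacZ (10.1%) and in 16 members of IL34LacZ/+ (1.82%), a limit chosen after the values were seen. Only 6 members lay between 0.5% and 5%, so the set stood well apart. Its 65 cells had a median Ttr share of 0.124% in IL34LacZ/LacZ and 0.214% in IL34LacZ/+, where the other members had 29.7% and 30.8%. Ependymal markers, genes of the ciliated cells that line the ventricle wall, made up a median of 1.21% of their UMIs in IL34LacZ/LacZ and 1.23% in IL34LacZ/+, against 0.0339% and 0.0267% in the other members. In IL34LacZ/LacZ 45 of the 49 cells, and in IL34LacZ/+ all 16, had at least 0.3% ependymal UMIs, and the 4 that did not were under 0.1%. The set reached the rule mostly through Folr1, which gave 87.8% of its rule UMIs in IL34LacZ/LacZ and 95.5% in IL34LacZ/+ but 31.1% and 32.3% in the other members. A Folr1 UMI was also found in 33.8% of 145 cells in an ependymal gate of IL34LacZ/LacZ and 39.5% of 76 in that of IL34LacZ/+. The rule genes together had 52 and 36 UMIs in these gates. Just below the threshold, 40 cells in IL34LacZ/LacZ and 22 in IL34LacZ/+ met the rule's other limits with a rule sum of 4. Of these, 24 and 6 had at least 0.5% ependymal UMIs, so cells with ependymal markers and several rule UMIs also lay outside the class. Values are therefore given for all members and again for the 438 and 864 members with at least 3% Ttr, called Ttr-high members.

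**Figure D1:**
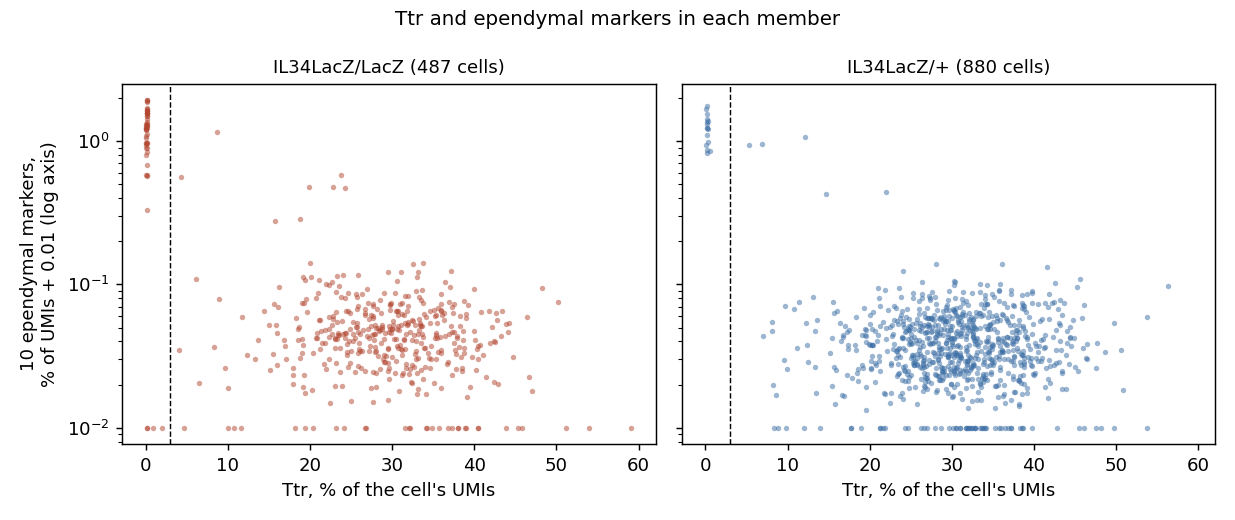
Each point is 1 member; the horizontal axis gives Ttr as a percent of the cell's UMIs, the vertical axis the 10 ependymal markers as a percent of its UMIs plus 0.01 (log axis), and the dashed line marks 3% Ttr. The 49 members left of the line in IL34LacZ/LacZ and the 16 in IL34LacZ/+ mostly sit at the top of the panel, apart from the main cloud around 30% Ttr.

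The rule used the 4 genes themselves, so their levels are a description. Kcnj13 lies at 87386363 to 87394729 on chromosome 1, Kcne2 at 92292389 to 92298129 on chromosome 16, Folr1 at 101858331 to 101870788 on chromosome 7 and Prlr at 10177238 to 10349180 on chromosome 15 (GRCm38, GENCODE vM21). Their summed UMIs had a median of 31 per member in IL34LacZ/LacZ and 34 in IL34LacZ/+. Just inside the threshold, 25 cells in IL34LacZ/LacZ and 22 in IL34LacZ/+ had a sum of 5, with a median Ttr share of 0.189% and 21.1%. Just outside it, 40 cells in IL34LacZ/LacZ and 22 in IL34LacZ/+ had a sum of 4, with a median Ttr share of 0.181% and 18.8%. In IL34LacZ/LacZ the cells next to the threshold on both sides were thus mostly low in Ttr, and in IL34LacZ/+ mostly high.

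Members made up a smaller share of the IL34LacZ/LacZ library. Their share of cells was 4.71% (4.31 to 5.13) in IL34LacZ/LacZ and 9.99% (9.37 to 10.6) in IL34LacZ/+, and among Ttr-high members alone 4.23% (3.85 to 4.64) and 9.80% (9.19 to 10.4). Among cells with no Ptprc UMI the share was 7.11% in IL34LacZ/LacZ and 14.4% in IL34LacZ/+. A sort and the amounts loaded from each sorted population can set these shares, and the filter on mitochondrial reads bears on them too: of 1337 barcodes in IL34LacZ/LacZ and 2129 in IL34LacZ/+ that met the gene rule, 850 and 1246 were above the 10% limit. Members were deeply sampled, with a median of 14740 UMIs in IL34LacZ/LacZ and 14027.5 UMIs in IL34LacZ/+, against 3838 and 3665.5 for all cells of the libraries. Doublet calls fell on 8.01% of members in IL34LacZ/LacZ and 7.50% in IL34LacZ/+. Over all barcodes of the libraries, including those that failed the cell filters, they fell on 6.46% and 6.44%. A barcode also among those of the other library was held by 9 members of IL34LacZ/LacZ and 5 of IL34LacZ/+. The libraries shared 103 barcodes in all.

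Among secreted proteins, the members' main products had similar levels in both libraries. Enpp2, which encodes autotaxin, an enzyme that makes lysophosphatidic acid, had 13272 CPM in IL34LacZ/LacZ and 13218 CPM in IL34LacZ/+, a ratio of 1.004 (0.996 to 1.01). Sostdc1, which encodes a secreted inhibitor of BMP and Wnt signals, had 1084 CPM in IL34LacZ/LacZ and 1187 CPM in IL34LacZ/+, and its ratio was 0.913 in all members and 0.995 in Ttr-high members. Klotho's gene Kl had 643 CPM in IL34LacZ/LacZ and 692 CPM in IL34LacZ/+. Igfbp2, an IGF-binding protein gene, had 1445 CPM in IL34LacZ/LacZ and 1600 CPM in IL34LacZ/+, and Ecrg4, which encodes a peptide precursor of this epithelium, had 3547 and 3767 CPM. None of these 5 genes differed by 1.5-fold between the libraries.

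Genes for ion and water movement were read in the class, most of those named here at similar levels in both libraries. For the blood-side chloride and bicarbonate route, Slc4a2 had 200.1 CPM in IL34LacZ/LacZ and 185 CPM in IL34LacZ/+, and Slc4a10, which loads sodium and bicarbonate into the cell, had 301 and 296 CPM. At the ventricle side, Slc4a5, which carries sodium and bicarbonate outward, had 163 CPM in IL34LacZ/LacZ and 169 CPM in IL34LacZ/+, the cotransporter gene Slc12a2 had 343 and 342 CPM, and the water channel gene Aqp1 had 67.9 and 70.2 CPM. The sodium pump subunit gene Atp1b1 had 917 CPM in IL34LacZ/LacZ, against 1032 CPM in IL34LacZ/+. Carbonic anhydrases were led by Car2, with 447 CPM in IL34LacZ/LacZ and 497 CPM in IL34LacZ/+, while Car12 and Car14 lay between 139.7 and 165 CPM. Kcnq1, which encodes a potassium channel partner of the Kcne2 subunit, was practically undetected, with 0 UMIs in IL34LacZ/LacZ and 1 UMI in IL34LacZ/+.

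Carriers for hormones and nutrients followed the same course. Slco1c1, the gene of a thyroid hormone carrier, had 317 CPM in IL34LacZ/LacZ and 330.0 CPM in IL34LacZ/+. The vitamin C carrier gene Slc23a2 had 120.1 CPM in IL34LacZ/LacZ and 119 CPM in IL34LacZ/+, the sulfate carrier gene Slc13a4 153 and 157 CPM, and the copper importer gene Slc31a1 276 and 279 CPM. Slc5a5, the iodide carrier gene, was low at 10.4 CPM in IL34LacZ/LacZ and 9.75 CPM in IL34LacZ/+. Glucose transporter gene Slc2a1 had 74.6 CPM in IL34LacZ/LacZ and 38.8 CPM in IL34LacZ/+ over all members and 37.5 and 31.3 CPM in Ttr-high members, and the low-Ttr set held 402 and 493 CPM.

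Claudins marked the seal between cells. Cldn2, which encodes a claudin that lets cations and water pass, had 102 CPM in IL34LacZ/LacZ and 97.8 CPM in IL34LacZ/+, while Cldn1 had 28.8 and 30.97 CPM and Cldn3 23.2 and 25.8 CPM. In the macrophage gate these 3 genes lay between 0.372 and 1.79 CPM. Among transcription factors Msx1 had 303 CPM in IL34LacZ/LacZ and 293 CPM in IL34LacZ/+, Otx2 225 and 230.4 CPM, and Lmx1a, a roof plate factor, 14.6 and 14.7 CPM. Foxj1, the regulator of motile cilia, was read in the main class as well, at 56.5 CPM in IL34LacZ/LacZ and 44.8 CPM in IL34LacZ/+ over Ttr-high members, against 704 and 728 CPM in the ependymal gate.

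**Figure D2:**
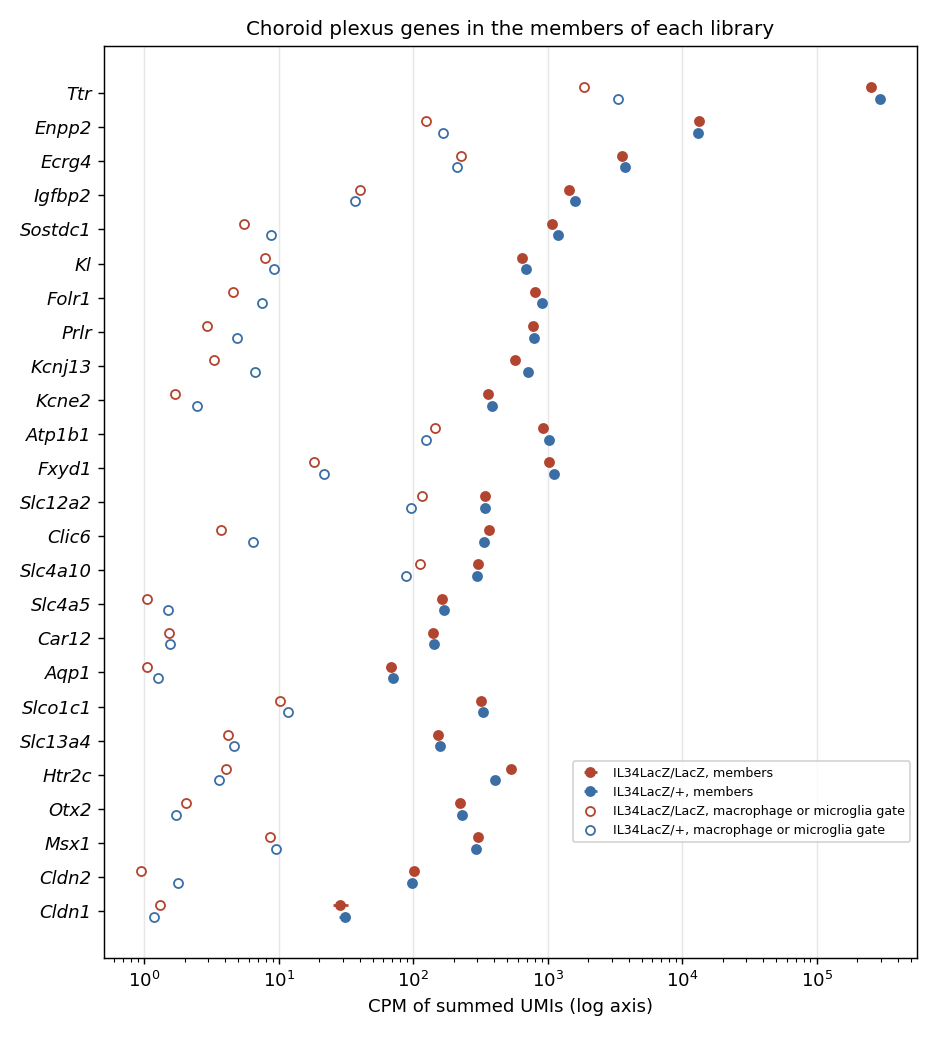
Filled points give the CPM (log axis) of 25 genes in the members of each library, with exact Poisson 95% intervals that are mostly narrower than the point, and open points give the CPM of the same gene in the macrophage or microglia gate. Slc4a5, Aqp1 and Cldn2 were at 1.79 CPM or lower in the macrophage gate of both libraries, while Ttr there stood at 1853 CPM in IL34LacZ/LacZ and 3315 CPM in IL34LacZ/+.

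The genes that stood out most from all other cells included listed markers and others. Ranked by the smaller of the 2 libraries' ratios of members to other cells, the first 20 genes outside the rule were Cox8b, Defb11, Slc16a8, Prr32, Ttr, Rdh5, F5, Pcp4, Smim22, Steap1, Hemk1, Crb3, Slc4a5, Krt18, Col9a3, Enpp2, Htr2c, Sostdc1, Kl and Prcd. Cox8b, which encodes a muscle-type subunit of cytochrome c oxidase, had 331 CPM in the members of IL34LacZ/LacZ and 299 CPM in those of IL34LacZ/+, 23.1- and 11.7-fold above the other cells. Slc16a8, the gene of a lactate carrier, was 18.8-fold above them in IL34LacZ/LacZ and 11.4-fold in IL34LacZ/+, Rdh5, a retinol dehydrogenase gene, 13.2- and 10.4-fold, and F5, which encodes coagulation factor V, 15.6- and 10.1-fold. These ratios are a description of the cells the rule chose, and the other cells still held Ttr at 12582 CPM in IL34LacZ/LacZ and 28044 CPM in IL34LacZ/+.

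Among Ttr-high members Ttr itself varied widely around a common centre. Its share ran from 4.01% to 59.1% with quartiles of 24.0% and 34.7% in IL34LacZ/LacZ, and from 5.36% to 56.3% with quartiles of 26.1% and 35.7% in IL34LacZ/+. With each cell thinned to 3000 UMIs, which left 423 and 837 Ttr-high members, the Fano factor (variance over mean, 1 for pure counting noise) of Ttr was 71.4 in IL34LacZ/LacZ and 57.4 in IL34LacZ/+. Haemoglobin genes led the ranking, with Hbb-bs at 389 in IL34LacZ/LacZ and 500 in IL34LacZ/+.

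The next genes after Ttr were Mgp, Rn18s, Dcn, Apod, Tmsb4x, Igfbp5, Fos, Apoc1, Cd74 and Slc38a2. Dcn is a fibroblast gene and Cd74 an antigen presentation gene of macrophages. Among the first 15 in Ttr-high members Fos, an immediate-early transcription factor gene, had a Fano factor of 8.47 in IL34LacZ/LacZ and 7.50 in IL34LacZ/+, and Slc38a2, an amino acid carrier gene, one of 7.94 and 6.90. Enpp2 followed at 7.05 in IL34LacZ/LacZ and 5.57 in IL34LacZ/+. When all members were ranked, Nnat, Ptgds and Tmem212 entered the first 15; Tmem212 is on the ependymal list.

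Genes of brain region differed in how far they stood above the macrophage or microglia gate. Choroid plexus forms in the forebrain ventricles and in the hindbrain, where Hox genes mark the cells' origin. A UMI of any of 14 Hox genes was found in 5.34% (3.52 to 7.73) of members of IL34LacZ/LacZ and 4.32% (3.07 to 5.88) of members of IL34LacZ/+. After thinning the shares were 1.91% (0.877 to 3.60) in IL34LacZ/LacZ and 0.587% (0.191 to 1.36) in IL34LacZ/+. Thinned macrophage-gate cells had 2.21% (1.65 to 2.89) and 1.89% (1.30 to 2.64), and the intervals overlap in each library. The members' Hox shares thus did not stand above this gate at equal depth. Whether the gate itself is free of Hox RNA was not tested, so a small hindbrain part is not excluded. A UMI of the forebrain genes as listed was found in 78.9% of members of IL34LacZ/LacZ and 76.1% of members of IL34LacZ/+, and after thinning in 38.9% and 34.5%, against 9.43% and 7.04% of thinned macrophage-gate cells. In an alternative chosen after seeing the data, forebrain genes other than Nr2f1 and Nr2f2 (among them Emx1, Emx2, Otx1, Lhx2, Lhx9 and Six3) were found in 49.1% (44.6 to 53.6) of members of IL34LacZ/LacZ and 50.2% (46.9 to 53.6) of members of IL34LacZ/+. Thinned, the shares were 19.3% of members in IL34LacZ/LacZ and 16.9% in IL34LacZ/+, against 1.66% and 1.15% in the macrophage gate. In thinned Ttr-high members they were 16.1% (12.7 to 19.9) and 18.2% (15.6 to 20.9), intervals that overlap. Six3 carried most of these UMIs, with 302 in IL34LacZ/LacZ and 596 in IL34LacZ/+, and Emx1 had 86 and 129.

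Ttr-high members with and without a forebrain UMI shared few differences between the libraries. Of 5820 genes compared, 1 (Synm, 0.0172%) was at least 1.5-fold higher in those with one in both libraries, and 6 (0.103%: Pthlh, Tyrobp, Tbc1d1, Fos, Pde10a and Klf6) were at least 1.5-fold lower. In IL34LacZ/LacZ 67 genes were higher and 107 lower, and in IL34LacZ/+ 39 were higher and 16 lower, these shared genes included. Members with a forebrain UMI were deeper, with a median of 17778 and 17200 UMIs, against 11671 and 11122 UMIs in those without. After thinning, Fos had a ratio of 0.444 in IL34LacZ/LacZ and 0.492 in IL34LacZ/+, and Synm one of 1.46 and 1.202. Pthlh and Pde10a were above 1 in IL34LacZ/LacZ after thinning, at 1.11 and 1.74, and Klf6 was at 0.795 in IL34LacZ/+.

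Between the genotypes, most genes of the class had similar levels, and the count of genes that differed depended on the low-Ttr set. Il34 itself had 11 and 19 UMIs in members of IL34LacZ/LacZ and IL34LacZ/+, or 1.41 and 1.37 CPM, and 631 and 580 UMIs over all barcodes of the libraries. Which part of the gene the 3′ reads cover relative to the LacZ allele is not stated in the labels, so this level does not check the labels. Over all members 9522 genes had at least 100 UMIs, of which 1573 (16.5%) were at least 1.5-fold higher in IL34LacZ/LacZ and 26 (0.273%) at least 1.5-fold lower. With the median ratio of all genes set to 1 these counts were 882 and 107. After thinning to 3000 UMIs 369 genes were higher, but thinning removes UMIs, so fewer genes reach the minimum of 100. That count therefore cannot be set against the 1573 of 9522. Among Ttr-high members 9029 genes had that many UMIs, of which 431 (4.77%) were higher and 31 (0.343%) lower. The median ratio over all genes measured was 1.15 in all members and 1.06 in Ttr-high members. Of the genes called higher, 409 were called in both, which is 26.0% of the calls in all members and 94.9% of those in Ttr-high members; of the genes called lower, 18 were, which is 69.2% of those in all members and 58.1% of those in Ttr-high members.

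Single cells held most of the IL34LacZ/LacZ UMIs of several genes at the head of the ranking in all members. The 10 genes with the largest interval bound above 1 included Gh, Camp, S100a8, Chil3, Lcn2, Ngp, S100a9, Nuf2 and Nnat. Camp, S100a8, Chil3 and Ngp, which encode neutrophil granule and alarm proteins, had between 82.4% and 94.7% of their IL34LacZ/LacZ UMIs in 1 cell. S100a8 had 289 CPM in IL34LacZ/LacZ and 17.1 CPM in IL34LacZ/+ over all members but 25.1 and 16.95 CPM in Ttr-high members. Gh, the growth hormone gene, had 206 UMIs in IL34LacZ/LacZ and none in IL34LacZ/+, and 60.2% of them lay in 1 cell; over all barcodes the libraries held 10290 and 2 Gh UMIs. In Ttr-high members the first 10 included Krtdap, Lypd2, Mal, Rgs5, Myoc, Prg4, Pomc, Gatm and Arpp21. Krtdap, a keratinocyte gene, had 95.6% of its IL34LacZ/LacZ UMIs in 1 cell. Of the 431 genes higher in Ttr-high members 101, and of the 31 lower 12, had a cell with at least 10% of the gene's UMIs in a library.

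Htr2c and Defb11 were higher in IL34LacZ/LacZ with no cell holding a large part of their UMIs. Htr2c encodes a serotonin receptor for which the choroid plexus is the classic site in rodents, and it lies at 146962513 to 147197277 on chromosome X. It had 537 CPM (521 to 554) in all members of IL34LacZ/LacZ and 409 CPM (399 to 419.9) in those of IL34LacZ/+. In Ttr-high members it had 596 CPM in IL34LacZ/LacZ and 416 CPM in IL34LacZ/+, a ratio of 1.43 (1.38 to 1.49), with 1.87% and 0.847% of its UMIs in the highest cell. This was just under the 1.5-fold limit. The cells outside the class had a ratio of 0.643. In those cells the rule genes summed to 145 CPM in IL34LacZ/LacZ and 289 CPM in IL34LacZ/+. The part of free RNA in these values was not tested. Defb11, a defensin gene at 21905376 to 21906412 on chromosome 8 and one of a family of similar genes among which reads could be split, had 158 CPM in Ttr-high members of IL34LacZ/LacZ and 101 CPM in those of IL34LacZ/+, a ratio of 1.58 (1.45 to 1.71). In the macrophage gate Defb11 had 0.474 CPM in IL34LacZ/LacZ and 1.26 CPM in IL34LacZ/+.

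Other genes were higher in Ttr-high members of IL34LacZ/LacZ with no cell holding 10% of their UMIs. The first of these, Pomc, a pituitary hormone gene, had 9.26 CPM in IL34LacZ/LacZ and 2.57 CPM in IL34LacZ/+, but its ratio was 27.7 in the cells outside the class. After it ranked Eml5, Gm38071, Sema6d, Camkk2, Klf7 and Dmd. These include Sema6d, an axon guidance gene (14.4 CPM in IL34LacZ/LacZ and 5.87 CPM in IL34LacZ/+), Camkk2, a calcium-dependent kinase gene (9.399 and 3.67 CPM), and Dmd, the dystrophin gene (11.7 and 4.77 CPM). Igfbp4, which encodes an IGF-binding protein, had 19.7 CPM in IL34LacZ/LacZ and 9.54 CPM in IL34LacZ/+, a ratio of 2.06 (1.61 to 2.64). Igf2, a growth factor gene expressed by this epithelium, had 22.9 CPM in IL34LacZ/LacZ and 14.02 CPM in IL34LacZ/+, a ratio of 1.64 (1.32 to 2.03). Hes1, a Notch target gene, had 40.4 and 23.9 CPM, a ratio of 1.69. Fibroblast markers summed to 285 CPM in the same members of IL34LacZ/LacZ and 196 CPM in those of IL34LacZ/+. The part of free RNA from other cells in these values was not tested.

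Few genes were lower in IL34LacZ/LacZ, and some of the best counted stopped short of the limit. Slc7a10, the gene of a carrier for small neutral amino acids, at 35186385 to 35201114 on chromosome 7, had 103 CPM in Ttr-high members of IL34LacZ/LacZ and 141 CPM in those of IL34LacZ/+, a ratio of 0.728 (0.668 to 0.794), which is short of 1.5-fold. In all members the ratio was 0.664, just past the limit. Six3, a forebrain homeobox gene at 85613608 to 85629302 on chromosome 17, had 30.05 CPM in IL34LacZ/LacZ and 43.4 CPM in IL34LacZ/+ over Ttr-high members, a ratio of 0.692 (0.588 to 0.811). In all members its ratio was 0.898, and the low-Ttr set of IL34LacZ/LacZ held 114 CPM. The retinoid-binding protein gene Rlbp1 had 15.1 CPM in IL34LacZ/LacZ and 25.02 CPM in IL34LacZ/+, a ratio of 0.603 (0.4805 to 0.752), and Dazl, a germ cell RNA-binding protein gene, 5.697 and 12.3 CPM. Vcam1, which encodes an adhesion molecule for leukocytes, had 86.2 CPM in IL34LacZ/LacZ and 113 CPM in IL34LacZ/+, a ratio of 0.764, and the interferon-inducible gene Ifi27 584 and 723 CPM.

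Of the 25 pathway lists, immediate-early genes had the most genes past the limit in Ttr-high members. Of 23 measured, 9 were at least 1.5-fold higher in all members, where 16.5% of all genes were, and none lower. In Ttr-high members, where 4.77% of all genes were higher, 6 of the 23 were (Ier2, Fosb, Socs3, Egr1, Fos and Junb) and 1, Atf3, was lower. Fos had 349 CPM in Ttr-high members of IL34LacZ/LacZ and 226 CPM in those of IL34LacZ/+, a ratio of 1.55 (1.47 to 1.63). Ier2 had 37.2 CPM in IL34LacZ/LacZ and 19.4 CPM in IL34LacZ/+, and Egr1 93.3 and 59.3 CPM. In the cells outside the class the ratios ran the other way, at 0.828 for Fos, 0.839 for Ier2 and 0.829 for Egr1, while in the ependymal gate Fos had 235 CPM in IL34LacZ/LacZ and 156 CPM in IL34LacZ/+. Atf3 had 7.98 CPM in IL34LacZ/LacZ and 14.5 CPM in IL34LacZ/+ over Ttr-high members. The list's median ratio in Ttr-high members was 1.24, beside 1.06 over all genes.

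**Figure D3:**
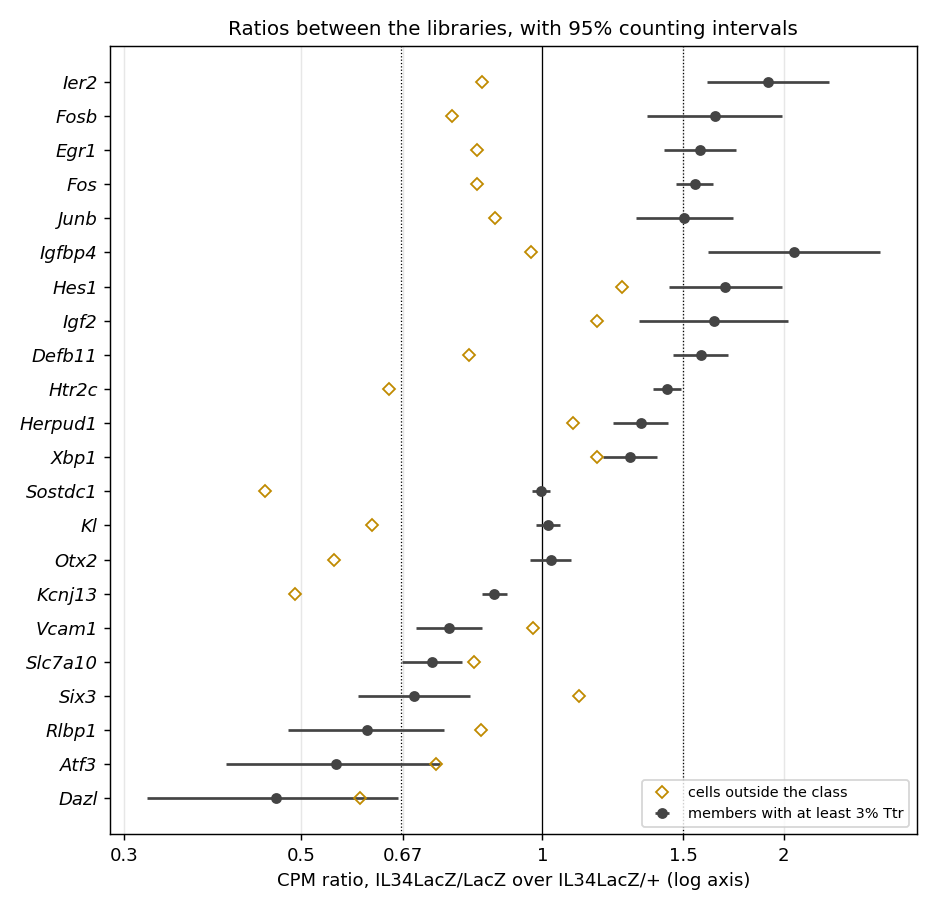
Filled points give the ratio of CPM, IL34LacZ/LacZ over IL34LacZ/+ (log axis), of 22 genes in Ttr-high members with exact 95% counting intervals, open diamonds the same ratio in the cells outside the class, and dotted lines 1.5-fold. Fos, Egr1, Fosb and Ier2 lie above 1 in the class and below 1 outside it, and Sostdc1, Kl and Otx2 sit near 1 in the class.

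Genes of the secretory machinery and of transport mostly had small differences. Over all genes, 16.5% were called higher in all members and 4.77% in Ttr-high members. All 12 measured genes of the unfolded protein response had a ratio above 1 in Ttr-high members, as did 6028 of the 9029 genes measured there. The list's median was 1.15 beside 1.06 over all genes, and none of the 12 reached 1.5. In all members the list's median of 1.12 lay under the 1.15 over all genes, so that with the median of all genes set to 1 it was -0.03 on the log2 scale. Herpud1, an endoplasmic reticulum degradation gene, had 155 CPM in IL34LacZ/LacZ and 117 CPM in IL34LacZ/+, Xbp1, a regulator of this response, 150.0 and 117 CPM, and the chaperone gene Hspa5 1239 and 1108 CPM. In Ttr-high members none of 16 sodium, potassium and chloride transport genes, none of 26 solute carriers and pumps and none of 43 oxidative phosphorylation genes were past 1.5-fold in either direction, with medians of 1.06, 1.06 and 0.97. In all members 1 of 17 ion transport genes was higher (Scnn1a, a sodium channel gene, with a ratio of 4.99) and 4 of 26 solute carriers and pumps, at most 1.92-fold, and none of 43 oxidative phosphorylation genes. Of 10 bicarbonate and water genes, 1 was higher: Aqp4, a water channel gene of astrocytes and ependyma, at 13.1 CPM in IL34LacZ/LacZ and 7.71 CPM in IL34LacZ/+. Of 18 secreted protein genes 3 were higher in Ttr-high members (Igfbp4, Igf2 and Fstl1), a larger share than over all genes, with a list median of 0.99.

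Lists that ependymal cells share with this epithelium depended on the low-Ttr set. The counts stand beside 16.5% of all genes called higher in all members and 4.77% in Ttr-high members. Of 21 motile cilia genes measured in all members 16 were higher in IL34LacZ/LacZ, with a median ratio of 2.18, and of 19 measured in Ttr-high members 4 were, with a median of 1.16. Tmem212 had 265 CPM in IL34LacZ/LacZ and 56.7 CPM in IL34LacZ/+ over all members and 36.03 and 18.4 CPM in Ttr-high members. All 10 ependymal markers were higher in all members (median 3.46), and 4 of 9 in Ttr-high members (median 1.30), where 6 cells of IL34LacZ/LacZ and 5 of IL34LacZ/+ still had at least 0.3% ependymal UMIs. Of 17 transcription factors, 7 were higher in all members and 2, Hes1 and Meis2, in Ttr-high members. Of 19 junction genes 4 were higher in all members, and of 18 in Ttr-high members 1, Cldn11, was, both near the share over all genes. The ratio of Foxj1 was 2.18 in all members and 1.26 in Ttr-high members.

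**Figure D4:**
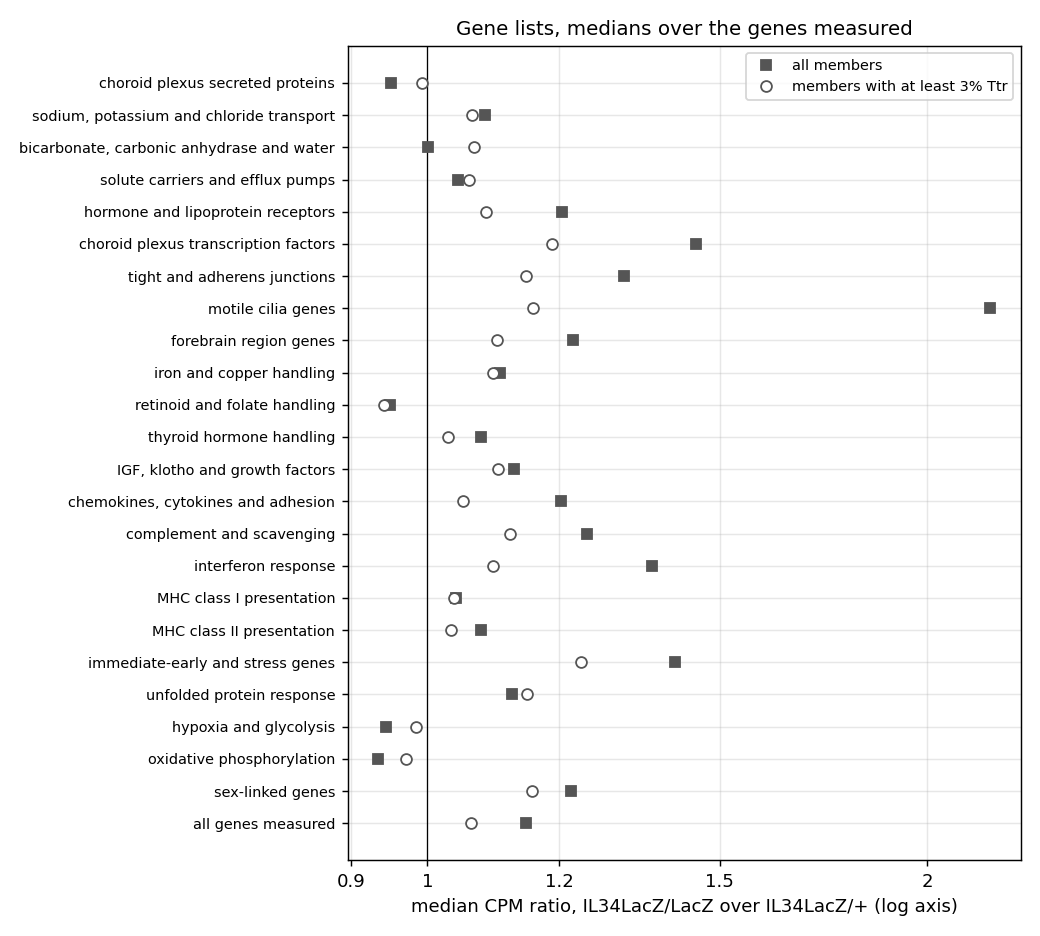
For each list with at least 5 genes measured, squares give the median ratio of CPM, IL34LacZ/LacZ over IL34LacZ/+ (log axis), over all members and circles the median over Ttr-high members; the bottom row is the median over all genes measured. Motile cilia genes stand at 2.18 with all members and at 1.16 with Ttr-high members, and the transport lists stay near 1 in both.

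Lists on signals and immunity had few genes with enough counts. Their counts stand beside 16.5% of all genes called higher in all members and 4.77% in Ttr-high members, where 0.343% were lower. Of 7 genes of the IL-34 and CSF1 axis, 2 were measured in Ttr-high members. Of these, Csf1r had 22.1 CPM in IL34LacZ/LacZ and 25.3 CPM in IL34LacZ/+, where the macrophage gate had 1811 and 1887 CPM, and Ptprz1, a second receptor described for IL-34, 9.83 and 6.97 CPM. In all members 3 of the 7 were measured and 2, Csf1 and Ptprz1, were higher in IL34LacZ/LacZ. Csf1, which encodes the other ligand of this receptor, had 57 UMIs or 7.29 CPM over all members of IL34LacZ/LacZ and 56 UMIs or 4.04 CPM over those of IL34LacZ/+, a ratio of 1.80 (1.23 to 2.66). In Ttr-high members, where it was under the minimum of 100 UMIs, it had 4.56 CPM in IL34LacZ/LacZ and 3.67 CPM in IL34LacZ/+. Of 9 chemokine, cytokine and adhesion genes 1 was higher (Spp1) and 1 lower (Ccl2) in Ttr-high members, and 42% of the Ccl2 UMIs of IL34LacZ/+ lay in 1 cell. The log2 ratio of Ccl2 over all members was above 0 with the 20% mitochondrial limit (0.21) and with no limit on other cell types (0.98). Cxcl10, an interferon-induced chemokine gene, had 38 UMIs in IL34LacZ/LacZ and 1 UMI in IL34LacZ/+, with 81.6% of the 38 in 1 cell. In all members 4 of 11 chemokine, cytokine and adhesion genes, 3 of 8 interferon response genes and 1 of 9 complement and scavenging genes were higher, and none of 9 class I and 7 class II presentation genes. In Ttr-high members none of 7 interferon response genes, 9 class I presentation genes and 8 complement and scavenging genes were past 1.5-fold, and of 7 class II genes 1, H2-DMa, was lower.

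The other lists had few genes higher in Ttr-high members, where 4.77% of all genes were. With between 5 and 18 genes measured per list, counts of 2 or fewer say nothing particular about them. Hormone and lipoprotein receptors had 1 of 15 higher (Nr3c2, median 1.08), iron and copper handling 1 of 14 (Mt2, median 1.10), retinoid and folate handling 1 of 7 (Crabp2, median 0.94), and forebrain genes 1 of 5 (Nr2f1, median 1.10). Growth factor genes had 2 of 15 higher (Igf2 and Igfbp4, median 1.10), hypoxia and glycolysis 1 of 18 (Ndrg1, median 0.98), and thyroid hormone handling none of 6 (median 1.03). In all members, where 16.5% of all genes were higher, the counts were 2 of 15 for receptors, 3 of 14 for iron and copper, 1 of 7 for retinoid and folate, 1 of 6 for forebrain, 3 of 16 for growth factors, 3 of 19 for hypoxia and glycolysis and none of 6 for thyroid hormone handling. Of 8 sex-linked genes none was past the limit, and the Y-linked gene Ddx3y had 96.8 CPM in IL34LacZ/LacZ and 108 CPM in IL34LacZ/+.

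Markers of other cell types were read in the members, and the sums of some lists differed between the libraries. In Ttr-high members the 8 markers of border-associated macrophages summed to 43.4 CPM in IL34LacZ/LacZ and 70.4 CPM in IL34LacZ/+, mural markers to 132 and 75.3 CPM, fibroblast markers to 285 and 196 CPM, oligodendrocyte markers to 188 and 63.0 CPM, red blood cell markers to 2850 and 1889 CPM, and the 10 ependymal markers to 519 and 380 CPM. Pf4, Mrc1 and Ms4a7, which are macrophage genes, were the 3 macrophage markers called lower in IL34LacZ/LacZ, with ratios in Ttr-high members of 0.566, 0.516 and 0.481, but with no limit on other cell types the log2 ratio over all members was 0.52 for Mrc1 and 0.51 for Ms4a7. Both genes had more than 10% of a library's UMIs in 1 cell. Of 4 mural markers measured 3 were higher, among them the pericyte gene Rgs5 with a ratio of 3.44, and 1, the smooth muscle gene Acta2, was lower with a ratio of 0.394 and 84.6% of its IL34LacZ/+ UMIs in 1 cell. Astrocyte markers summed to 135 CPM in IL34LacZ/LacZ and 96.7 CPM in IL34LacZ/+, neuron markers to 42.7 and 19.1 CPM, microglia markers to 413 and 362 CPM, endothelial markers to 41.4 and 39.2 CPM and leukocyte markers, with Ptprc at 0 by the rule, to 176 and 172 CPM. No other marker of these lists was at 0 in either library. The part of free RNA and of mixed droplets in these values was not tested.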

How the data were processed

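Cells from IL34LacZ/LacZ and IL34LacZ/+ brain were profiled as 1 library each. The authors deposited raw UMI counts; per the file headers these come from Cell Ranger 5.0.0, and the submitters' processing notes name GRCm38.p6 (mm10). From these counts, cells needed 1000 UMIs and 500 genes or more, and a mitochondrial share of 10% or less. Doublets were marked with Scrublet (scanpy 1.11.5, rate 10%, seed 1) and kept. UMIs were summed per library and given as CPM with exact Poisson intervals; ratios have exact conditional binomial intervals and shares Clopper-Pearson intervals (scipy 1.17.1, numpy 2.4.6, pandas 2.3.3, Python 3.11.15, matplotlib 3.10.9). All intervals are at 95%. A gene was measured with at least 100 UMIs over both libraries and called at 1.5-fold. No test was made, since each genotype is 1 library. The intervals were checked on data simulated with counting noise only, so that check does not cover the spread between cells or mice.

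Genes were named by rule: the 10 on each side whose interval bound nearest 1 lay farthest from 1, the 20 most enriched over other cells at 50 CPM or more, the 15 most variable, and members of the lists; a few genes that the rule names are not reported here. Members, lists and rules were chosen with earlier results of these data known. Alternatives changed the marker sum, cell filters, doublets, total, weighting, thinning and gene minimum.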

Additional observations from a re-analysis of the deposited data

How the results depend on the processing

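No paired analysis was possible because each genotype is 1 library. The share of members in IL34LacZ/LacZ over that in IL34LacZ/+ was 0.471, and 0.527 with a marker sum of at least 3, 0.419 with at least 10, 0.578 with a mitochondrial limit of 5% and 0.536 with 20%. The 1573 genes higher in IL34LacZ/LacZ became 2582 with a marker sum of at least 3, 478 with at least 10, 413 with the 5% limit, 399 without members over 1% other-class markers, 882 with the median ratio set to 1, 369 after thinning, 2862 at 30 UMIs and 560 at 300 UMIs. Without the low-Ttr set, an alternative chosen after seeing the data, they were 431, with 358 when Ttr and mitochondrial genes also left the total and 355 when each gene also lost its highest cell. The 26 lower genes became 81 with the 5% limit, 17 without doublets, 48 with the total without Ttr and mitochondrial genes, 107 with the median set to 1, 50 with equal weight per cell, 97 at 30 UMIs, 5 at 300 UMIs, and 40 without both the low-Ttr set and Ttr and mitochondrial genes in the total. Changes of the marker sum, cell filters, thinning and gene minimum also change how many genes are measured, so these counts have different totals. Setting the median ratio to 1 moved genes by 0.20 on the log2 scale in all members and 0.09 in Ttr-high members. Hox shares were 1.91% and 0.587% after thinning; forebrain shares were 38.9% and 34.5% thinned, and 49.1% and 50.2% without Nr2f1 and Nr2f2. Log2 ratios changed sign for Ccl2 (0.21 with the 20% limit, 0.98 with no limit on other cell types), Mrc1 (0.52) and Ms4a7 (0.51, both with no such limit), Acta2 (-1.46 without other-class members, -1.34 without the low-Ttr set, -1.38 with the total also changed) and Myoc (-0.43 without other-class members). The IL-34 and CSF1 list's median was -0.47 after thinning. The causes were not tested. Of 455 list values under alternatives 391 stayed within their error, and of 700 gene values 552. Of 24 lists, 14 had a median of the other sign under at least 1 alternative, and 12 without counting the scaling to a median of 1, which moves all genes alike. Without that scaling these were bicarbonate and water under 7 alternatives, solute carriers and chemokines under 3 each, retinoid and folate under 2 and the others under 1 each. Genes under 100 UMIs, such as Il34, were too shallow to be called.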
